A study of Mus musculus with 18 samples.

Results

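The 8 genes described here are the glucocorticoid receptor gene Nr3c1 and 7 of its known direct targets, Fkbp5, Tsc22d3, Klf9, Sgk1, Zbtb16, Cebpd and Errfi1. They were picked by gene symbol, as a possible readout of the steroid content of serum, and all 8 were found among the 55487 genes of the count table. RNA was sequenced from wild-type MEFs (mouse embryonic fibroblasts, a cell line from a culture collection) in 6 groups of 3 libraries. Scm is complete medium with the fetal bovine serum (FBS) that left cells sensitive to ferroptosis, an iron-dependent death by lipid peroxidation, and Rcm is the same medium with an FBS that made them resistant. Both control groups, Scm and Rcm, stayed in 1 medium, cells of S-Rcm 12 h and S-Rcm 24 h left Scm for Rcm and were harvested after the hours in the name, and cells of R-Scm 12 h and R-Scm 24 h made the opposite move. No drug or steroid was added in any group, and the steroid content of either serum is not given in the sources used here, so that the genes are described without a treated control. The labels do not say whether the 3 libraries of a group came from separate cultures, and p-values then measure only the spread between these libraries.

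The glucocorticoid receptor waits in the cytoplasm in a complex with heat shock proteins, binds cortisol or corticosterone that enters the cell, and then moves into the nucleus. There it binds DNA as a dimer at palindromes of the letters AGAACA and TGTTCT and raises target genes within hours, while it lowers many inflammatory genes by tethering to AP-1 and NF-κB. Fkbp5 encodes an immunophilin that lowers the affinity of the receptor for steroid, and its induction is among the most widely used signs of glucocorticoid exposure, whereas Sgk1, Cebpd, Klf9 and Errfi1 also answer to growth factors, stress or other signals.

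Of the 8 genes, 7 had enough reads to be tested and Zbtb16 had none. No comparison called more than 1 of the 7. Sgk1, a kinase that regulates ion channels and FOXO factors, was the only one called different (adjusted p under 0.05 and an absolute log2 fold change above 0.58), 1.55-fold higher in R-Scm 12 h than in Rcm. In that comparison 2.74% of all genes were called. The Sgk1 call was lost without R-Scm 12 h replicate 3, at a log2 fold change of 0.36, and without any 1 of the Rcm libraries. Fkbp5 differed by at most 1.18-fold between any groups, at a median level of 62.8 CPM (counts scaled to library size with TMM factors).

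The promoters of the members are shown because the receptor is known to bind some of the letters searched in them. Sgk1, the only gene called, also had the rarest match, but a link between the match and the call was not tested. RefSeq windows on GRCm38.p6, from 250 bases before to 50 bases after a transcript start, were found for 5 of the 8 genes (13 windows, since Sgk1 has 6, Tsc22d3 3 and Errfi1 2). Nr3c1, Zbtb16 and Cebpd had no entry. In the runs below the capitals mark the palindrome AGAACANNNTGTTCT, its 6-base part TGTTCT, the cAMP response element TGACGTCA and the shorter motif TGACG within it, each searched on both strands. The window of Fkbp5 is shown for contrast, as that of the best known target.
Sgk1 (chr10:21993640-21993939, plus strand): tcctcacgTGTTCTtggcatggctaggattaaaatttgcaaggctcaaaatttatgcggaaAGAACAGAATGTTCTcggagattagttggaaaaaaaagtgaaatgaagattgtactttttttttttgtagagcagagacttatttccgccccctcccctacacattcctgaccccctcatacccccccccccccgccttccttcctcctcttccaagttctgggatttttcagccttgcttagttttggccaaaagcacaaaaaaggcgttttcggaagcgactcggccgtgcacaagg
Tsc22d3 (chrX:140600473-140600772, minus strand): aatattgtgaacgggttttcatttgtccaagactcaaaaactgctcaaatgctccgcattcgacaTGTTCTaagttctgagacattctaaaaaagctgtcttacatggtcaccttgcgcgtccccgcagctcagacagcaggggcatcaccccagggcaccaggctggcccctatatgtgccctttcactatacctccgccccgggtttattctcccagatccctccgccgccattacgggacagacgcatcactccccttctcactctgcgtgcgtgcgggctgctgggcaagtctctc
Errfi1 (chr4:150854820-150855119, plus strand): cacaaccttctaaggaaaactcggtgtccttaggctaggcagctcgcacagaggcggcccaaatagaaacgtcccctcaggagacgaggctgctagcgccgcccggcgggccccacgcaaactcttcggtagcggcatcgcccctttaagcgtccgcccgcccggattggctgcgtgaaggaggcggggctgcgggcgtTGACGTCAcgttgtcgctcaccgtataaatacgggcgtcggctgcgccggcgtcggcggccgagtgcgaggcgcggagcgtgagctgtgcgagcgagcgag
Fkbp5 (chr17:28486100-28486399, minus strand): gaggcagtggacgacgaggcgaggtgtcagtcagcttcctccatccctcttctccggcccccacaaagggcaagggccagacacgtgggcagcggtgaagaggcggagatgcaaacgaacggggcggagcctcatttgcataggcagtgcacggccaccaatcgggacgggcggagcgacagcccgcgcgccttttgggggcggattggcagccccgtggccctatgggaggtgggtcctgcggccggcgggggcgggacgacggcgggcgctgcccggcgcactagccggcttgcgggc
The first run is the fifth of the Sgk1 windows, and it held the whole palindrome as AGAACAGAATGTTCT at position -189, counted back from the transcript start. Only 3 of 32851 RefSeq windows (0.00913%) held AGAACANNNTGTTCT. The part TGTTCT, which overlaps the palindrome at both of its ends, was found in 4 of the 13 windows and in 19.0% of all windows, among them the third window of Tsc22d3 at -185. The second window of Errfi1 had TGACGTCA at -51 (1.79% of all windows), which contains TGACG on both strands. Klf9 had TGACG alone at -46 (20.8% of all windows). The window of Fkbp5 had no capitals. It held the E-box CACGTG at -169, as did 7.15% of all windows and the fifth Sgk1 window at -246, where it overlaps TGTTCT. A search for TGACTCA (AP-1, 5.20% of all windows) found no match in the 13 windows. These matches describe letters in short windows, and gene counts do not say which transcript start was used.

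Total counts per library ran from 14534906 to 20313715. Of all genes, 15381 passed the filter on low counts, and 354 of them (2.3%) were called between Rcm and Scm. All 9 fibroblast markers were tested, with a summed level of 7922 to 11217 CPM per library. Col3a1 was called higher in Rcm against Scm, Pdgfrb lower in R-Scm 12 h and Thy1 higher in S-Rcm 12 h. Each was the 1 fibroblast marker called there by edgeR, against 2.3%, 2.74% and 0.858% of all genes. These calls were lost without 5, 6 and 0 of the 6 libraries. Leaving out 1 library also moved the calls over all genes, from 354 to between 178 and 574 in Rcm against Scm. In R-Scm they went from 421 to between 275 and 420 at 12 h and from 58 to between 14 and 501 at 24 h. In S-Rcm they went from 132 to between 36 and 76 at 12 h and from 52 to between 6 and 28 at 24 h. The test for any difference among the 6 groups called Dcn, Pdgfra and Thy1 (7.09% of all genes). Markers of epithelial, endothelial, leukocyte, adipocyte and muscle cells summed to at most 19.6, 3.25, 5.21, 2.46 and 5.84 CPM. Among them Fabp4, an adipocyte marker, was higher in Rcm than in Scm (log2 fold change 1.78, adjusted p = 0.0259), with at most 2.46 CPM for its whole list, in a call that was lost without 5 of the 6 libraries. Krt19, an epithelial marker, was higher in R-Scm 24 h than in Scm (log2 fold change 1.12, adjusted p = 0.0499), a call that was also lost without 5 of the 6 libraries. Acta1, a muscle marker, missed the adjusted test in R-Scm 12 h (1.15, adjusted p = 0.0639) and S-Rcm 24 h (1.56, adjusted p = 0.0539), where DESeq2 called it, and it and Krt19 passed the test for any difference among the 6 groups. The part of these markers in the results was not tested. 2 libraries stood apart, on different grounds. R-Scm 24 h replicate 1 had the lowest mean correlation of log2 CPM with its group (r = 0.975), and R-Scm 12 h replicate 3 had the highest Sgk1 and Errfi1 of all 18. By mean correlation R-Scm 12 h replicate 3 (r = 0.981) did not stand apart. Rcm replicate 3 (0.980) and R-Scm 24 h replicates 2 and 3 (both 0.978) had lower values. Values without them stand beside the Sgk1 and Errfi1 changes that they moved most.

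Per kilobase of exon, the mean level over the 18 libraries was 71.8 CPM for Sgk1 and 55.4 CPM for Errfi1. Nr3c1 followed with 13.3 CPM per kilobase and Cebpd with 9.70. Fkbp5 (6.50), Klf9 (5.75) and Tsc22d3 (4.50) were the lowest of the detected genes. The SD over the 18 libraries was 0.507 for Fkbp5, 1.0 for Klf9 and 0.839 for Tsc22d3, so that these neighbours in the order overlapped. Sgk1 and Errfi1 overlapped as well, with SDs of 16.5 and 16.0. Zbtb16, a zinc finger transcription factor that steroid induces strongly in many cell types, had 0 counts in all 18 libraries. A count of 0 allows up to 3 counts, which is 0.152 to 0.208 CPM at these depths and covers counting error only.

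**Figure D1:**
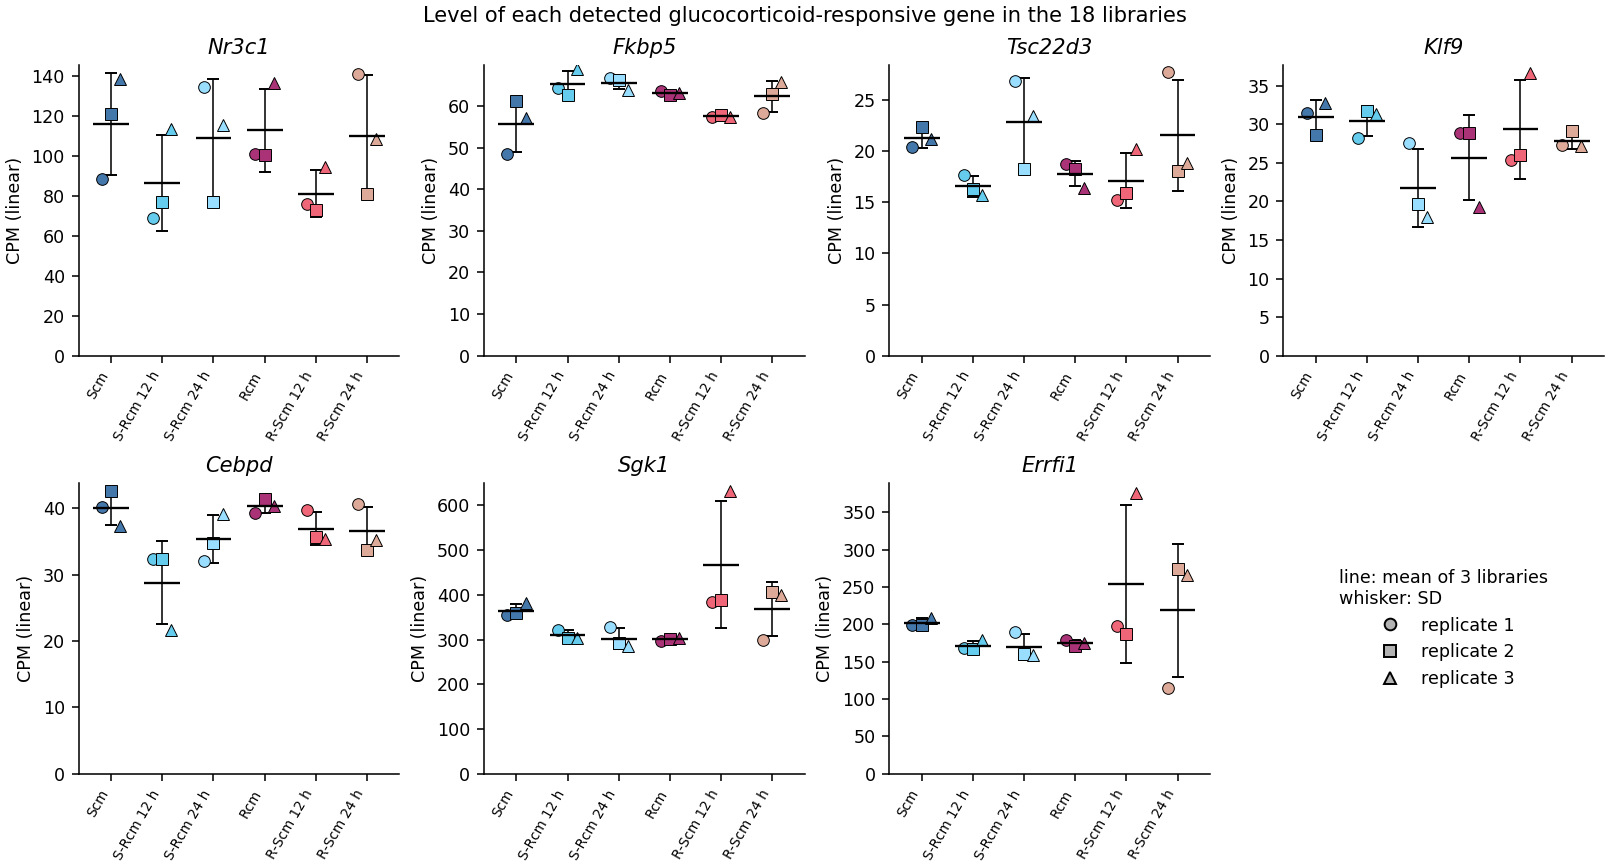
Level of the 7 detected genes in each library, in CPM on a linear axis from 0, with 1 panel per gene and 1 column per group. Points are libraries (circle, square and triangle for replicates 1, 2 and 3), lines are means and whiskers are SDs of 3 libraries. R-Scm 12 h replicate 3 is the highest point for Sgk1 (631 CPM) and Errfi1 (376 CPM).

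Nr3c1, the receptor itself, was called different in no comparison. In Scm it had 88.2, 120.9 and 138 CPM in replicates 1, 2 and 3, and in Rcm 100.8, 100.5 and 137 CPM. These ranges overlapped almost completely, and Rcm differed from Scm by a log2 fold change of -0.04 (95% interval -0.57 to 0.49, adjusted p = 0.954). After 12 h in the other medium S-Rcm 12 h had 68.7, 77.0 and 113 CPM, and R-Scm 12 h had 75.6, 72.6 and 94.4 CPM. Both 12 h groups had lower means than the group they left, by log2 fold changes of -0.42 (SE 0.25, adjusted p = 0.477) and -0.48 (SE 0.25, adjusted p = 0.343), and neither change passed the test. The mean of both 12 h changes was -0.45 (SE 0.18, unadjusted p = 0.0215, adjusted p = 0.186). At 24 h S-Rcm 24 h had 134, 76.7 and 115 CPM and R-Scm 24 h had 141, 80.6 and 108 CPM, which overlapped both Scm and Rcm.

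The comparison of Rcm with Scm asked whether the target genes differed between cells kept in either serum. Of the 7 tested genes 0 were called by edgeR and 0 by DESeq2, against the 2.3% of all genes called by edgeR, and 1 (Fkbp5) had an unadjusted p under 0.05, as had 16.2% of all genes. The median of their log2 fold changes was -0.21, beside 0.01 for all 15381 genes, with 2 of the 7 positive. In 4 of the 7 (Fkbp5, Tsc22d3, Sgk1 and Errfi1) the libraries of both groups did not overlap, as in 23.9% of all genes.

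Fkbp5 had 48.4, 61.3 and 57.2 CPM in Scm and 63.7, 62.6 and 63.0 CPM in Rcm. Every Rcm library was above every Scm library, but the means of 55.6 and 63.1 CPM were only 1.14-fold apart (log2 fold change 0.18, SE 0.09, adjusted p = 0.299). The upper bound of the 95% interval of that fold, 1.29, lies below the 1.5-fold size of the threshold. After the exchange to Rcm, S-Rcm 12 h had 64.3, 62.7 and 68.8 CPM and S-Rcm 24 h had 66.6, 66.3 and 63.7 CPM, all above the highest Scm library. The log2 fold changes against Scm were 0.23 (SE 0.09, adjusted p = 0.215) and 0.24 (SE 0.09, adjusted p = 0.386). R-Scm 12 h had 57.5, 57.8 and 57.4 CPM, all below the lowest Rcm library, with a log2 fold change of -0.13 (SE 0.09, adjusted p = 0.459). R-Scm 24 h, with 58.4, 62.9 and 65.7 CPM, overlapped Rcm. The 9 libraries in Rcm at harvest thus had 62.6 to 68.8 CPM of Fkbp5 and the 9 in Scm at harvest 48.4 to 65.7 CPM, with a difference in level that passed the test in none of the 5 comparisons. The difference between the opposite exchanges at 12 h was -0.36 (SE 0.12, unadjusted p = 0.00779, adjusted p = 0.147). The within-group SD of its log2 CPM was 0.0856, against a median of 0.218 over all genes, and the range of its 6 group means (0.24 on the log2 scale) was at the percentile 17.9 of all genes.

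Tsc22d3, which encodes the leucine zipper protein GILZ that restrains AP-1 and NF-κB, had 20.4, 22.4 and 21.2 CPM in Scm and 18.7, 18.2 and 16.4 CPM in Rcm. All Scm libraries were higher, by a fold that missed the test (log2 fold change -0.26 for Rcm, SE 0.17, adjusted p = 0.456). Its direction was thus opposite to that of Fkbp5. S-Rcm 12 h had 17.6, 16.3 and 15.7 CPM, below all Scm libraries (log2 fold change -0.37, SE 0.17, adjusted p = 0.334), and S-Rcm 24 h had 26.9, 18.3 and 23.5 CPM, which overlapped Scm. From 12 h to 24 h of that exchange the log2 fold change was 0.47 (SE 0.17, unadjusted p = 0.0133, adjusted p = 0.364). In the exchange to Scm, 15.3, 15.9 and 20.2 CPM at 12 h and 27.7, 18.1 and 18.8 CPM at 24 h overlapped with Rcm. Counts behind these values were 268 to 471 per library, the lowest of the detected genes together with Klf9 (285 to 598).

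Klf9, a zinc finger repressor that glucocorticoids induce in many tissues, had 31.5, 28.6 and 32.8 CPM in Scm and 28.9, 28.8 and 19.3 CPM in Rcm. The groups overlapped and replicate 3 of Rcm was the lowest (log2 fold change -0.27, SE 0.18, adjusted p = 0.463). In S-Rcm 24 h it had 27.5, 19.6 and 18.03 CPM, all below Scm, with a log2 fold change of -0.51 (SE 0.18, unadjusted p = 0.0108, adjusted p = 0.357). The other groups stayed between 25.3 and 36.7 CPM, with the highest value in R-Scm 12 h replicate 3.

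Cebpd, a transcription factor of the acute phase response and of early fat cell differentiation, had 40.2, 42.6 and 37.4 CPM in Scm and 39.4, 41.5 and 40.3 CPM in Rcm. These levels overlapped, with a log2 fold change of 0.01 (95% interval -0.27 to 0.29, adjusted p = 0.976). In S-Rcm 12 h it had 32.4, 32.4 and 21.6 CPM, each below every Scm library, with the lowest value in replicate 3. The log2 fold change was -0.48 (SE 0.13, unadjusted p = 0.00262, adjusted p = 0.101), and by DESeq2 it was -0.49 with an adjusted p of 0.0253, still under the fold threshold. By 24 h it had 32.1, 34.8 and 39.2 CPM, which overlapped Scm, and all 6 R-Scm libraries had 33.7 to 40.6 CPM. The single exon of Cebpd shares 562 bases with an exon of Spidr on the opposite strand, whose group means were 33.2 to 35.3 CPM. The counting step's use of strand is not given in the sources used here, so that reads of these 2 genes cannot be told apart there.

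Sgk1 had 353.8, 358.6 and 382 CPM in Scm and 297.5, 301.7 and 303 CPM in Rcm. All Scm libraries were higher than all Rcm libraries, and the log2 fold change of Rcm against Scm was -0.28 (SE 0.15, adjusted p = 0.385), which did not pass the test. The exchange to Rcm gave 322, 303.1 and 303.7 CPM at 12 h and 328, 291 and 285 CPM at 24 h. All 6 were below the Scm libraries and around the level of Rcm, with log2 fold changes against Scm of -0.24 (SE 0.15, adjusted p = 0.534) and -0.27 (SE 0.15, adjusted p = 0.714).

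The exchange to Scm gave the only call. R-Scm 12 h had 383, 388 and 631 CPM of Sgk1, all above the 3 Rcm libraries, with replicate 3 far above the other two. The mean rose from 301 ± 2.95 CPM (SD, n = 3) in Rcm to 467 ± 142 CPM (SD, n = 3), a log2 fold change of 0.64 (SE 0.15, 95% interval 0.31 to 0.96, adjusted p = 0.0269 by edgeR). Of the 7 genes 1 was called in this comparison, against 2.74% of all genes, and 1.51% were called higher. Without R-Scm 12 h replicate 3 the log2 fold change was 0.36 (adjusted p = 0.124), and the call was lost. It was also lost without Rcm replicate 1, 2 or 3 (adjusted p = 0.0859, 0.0844 and 0.0676), at log2 fold changes of 0.63 to 0.65. With DESeq2 the adjusted p was 0.0039. At an unadjusted p under 0.05 there was also 1 of the 7, Sgk1, against 17.6% of all genes. Over the 7 genes the median was -0.06 on the log2 scale, beside -0.01 for all genes, and 3 of them were positive. Libraries did not overlap for 4 of the 7 (Nr3c1, Fkbp5, Sgk1 and Errfi1), as for 23.4% of all genes.

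By 24 h Sgk1 was at 299, 407.3 and 400.0 CPM in the R-Scm libraries. Replicate 1 was at the level of Rcm and replicates 2 and 3 were above Scm, so that the group overlapped both. The log2 fold change against Rcm was 0.29 (SE 0.15, adjusted p = 0.550), and 0.42 (adjusted p = 0.153) without R-Scm 24 h replicate 1. In this comparison 0 of the 7 genes were called by edgeR or DESeq2, 0 had an unadjusted p under 0.05 and 0 had libraries without overlap, against 0.377%, 10.3% and 11.2% of all genes. Their median was 0.12 on the log2 scale, beside -0.0013 for all genes.

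Errfi1, an inhibitor of the epidermal growth factor receptor that growth factors and glucocorticoids both induce, had a profile like that of Sgk1. It had 199, 199 and 209 CPM in Scm and 179, 171 and 175 CPM in Rcm. S-Rcm libraries had 168, 167 and 179 CPM at 12 h and 190.0, 160.3 and 159 CPM at 24 h. All 9 libraries in Rcm at harvest were thus below all 3 of Scm, without a difference that passed the test (log2 fold changes -0.21, -0.24 and -0.25, each SE 0.27, adjusted p = 0.731, 0.765 and 0.916). In R-Scm 12 h it had 198, 188 and 376 CPM, with replicate 3 again far above the other two. The log2 fold change against Rcm was 0.53 (SE 0.27, adjusted p = 0.327), and 0.14 (adjusted p = 0.880) without that library. R-Scm 24 h had 115, 274 and 266 CPM, from the lowest of all 18 libraries to some of the highest, with replicate 1 below Rcm. The log2 fold change against Rcm was 0.32 (SE 0.27, adjusted p = 0.753), and 0.63 (adjusted p = 0.106) without that replicate.

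Over the 18 libraries the log2 CPM of Sgk1 and Errfi1 had r = 0.887, the highest of the 21 pairs of detected members. Without R-Scm 12 h replicate 3 the value was 0.791, and without both libraries that stand apart it was 0.852. Next came Nr3c1 with Tsc22d3 (r = 0.622) and Klf9 with Sgk1 (r = 0.522). The lowest value was that of Fkbp5 with Cebpd (r = -0.496), and Fkbp5 with Tsc22d3 had r = -0.10. Over all tested genes the profile of Sgk1 was most like those of Tmeff2 (r = 0.933), Bdnf (r = 0.932) and Denr (r = 0.925), over 18 libraries in 6 groups.

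**Figure D2:**
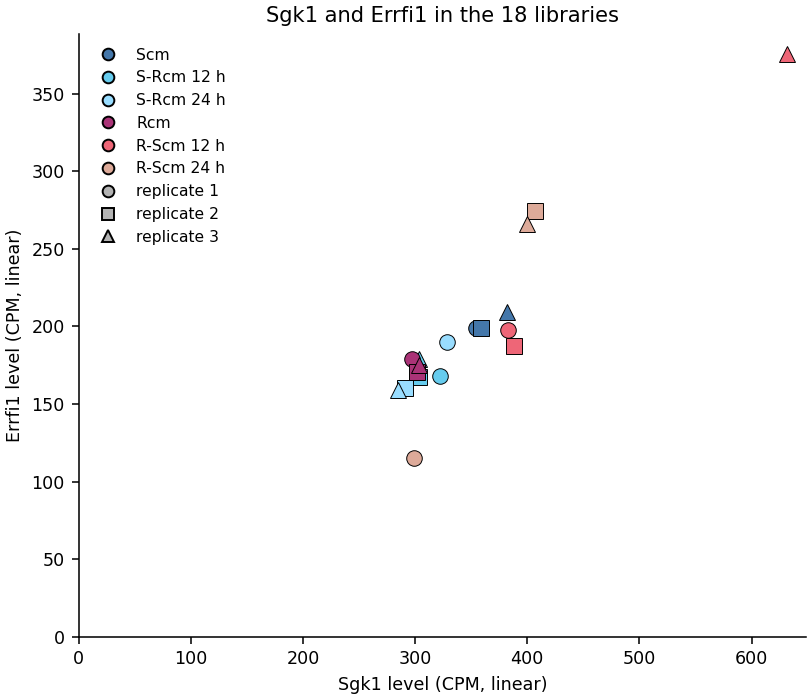
Errfi1 level against Sgk1 level in the 18 libraries, both in CPM on linear axes from 0, with colour for the group and shape for the replicate. R-Scm 12 h replicate 3 lies at the top right (631 and 376 CPM), R-Scm 24 h replicate 1 lies lowest for Errfi1 (115 CPM), and the 9 libraries in Rcm at harvest lie between 285 and 328 CPM of Sgk1.

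The exchange from Scm to Rcm asked whether the genes moved once cells met the other serum. At 12 h 0 of the 7 genes were called by edgeR or DESeq2, against 0.858% of all genes. 3 (Fkbp5, Tsc22d3 and Cebpd) had an unadjusted p under 0.05 (14.3% of all genes), 1 of them higher and 2 lower, and libraries did not overlap for 5 of the 7, as for 26.4% of all genes. The median log2 fold change was -0.24, beside 0.02 for all genes, with 1 of the 7 positive. At 24 h 0 of the 7 were called by either tool, against 0.338% of all genes, and 2 (Fkbp5 higher and Klf9 lower) had an unadjusted p under 0.05 (8.11% of all genes). The median was -0.18, beside 0.01 for all genes, and 4 of the 7 did not overlap, as in 19.5% of all genes. S-Rcm and Rcm are both compared with Scm and share its 3 libraries, so that their like values are not independent.

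**Figure D3:**
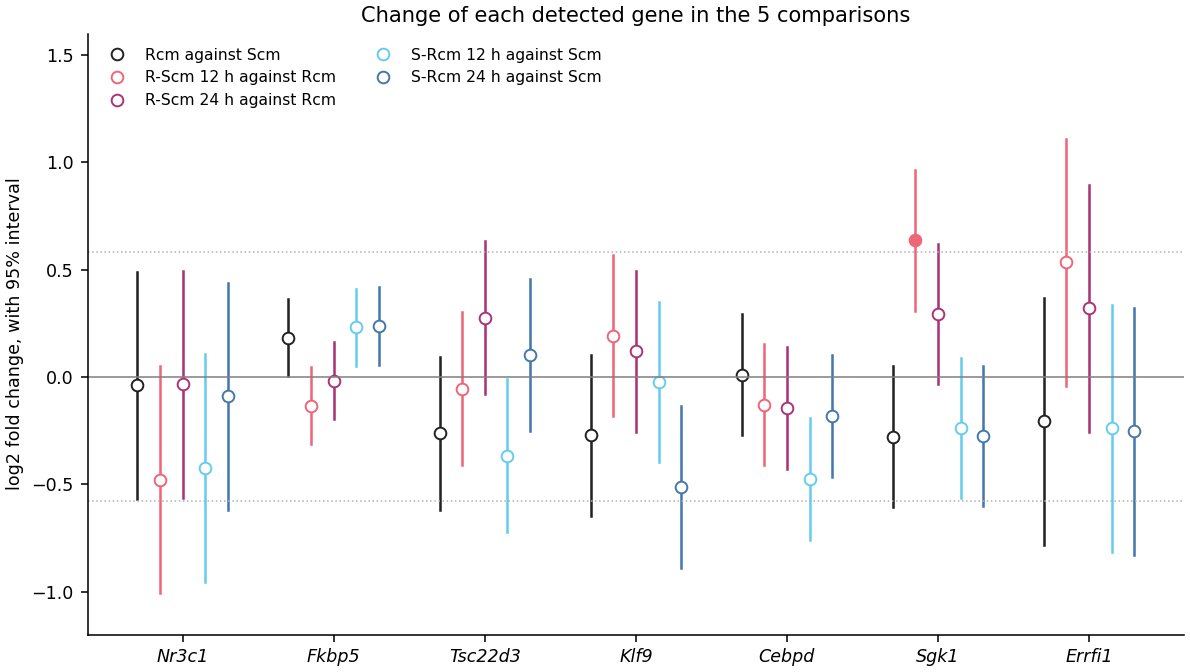
Log2 fold change of the 7 detected genes in the 5 comparisons, with 95% intervals as vertical lines, a filled point where the gene was called and dotted lines at the fold threshold of 0.58 in either direction. The filled point is Sgk1 in R-Scm 12 h against Rcm (0.64), and the intervals of Fkbp5, the narrowest, lie between -0.31 and 0.42.

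Both exchanges were then compared directly. At 12 h the Sgk1 change in R-Scm minus that in S-Rcm was 0.87 on the log2 scale (SE 0.22, adjusted p = 0.0470), with 2.03% of all genes called in this contrast and 1 of the 7 here, and 2 of the 7 (Fkbp5 and Sgk1) had an unadjusted p under 0.05, as had 14.7% of all genes. Without R-Scm 12 h replicate 3 it was 0.60 (adjusted p = 0.0588), and leaving out any of the 3 libraries of Scm, Rcm or S-Rcm 12 h raised the adjusted p to 0.0754 to 0.118. At 24 h the difference was 0.57 (SE 0.22, adjusted p = 0.268) and 0 of the 7 were called by edgeR or DESeq2, against 1.37% of all genes, with 3 (Fkbp5, Klf9 and Sgk1) at an unadjusted p under 0.05 (12.6% of all genes). Without R-Scm 24 h replicate 1 the 24 h difference of Sgk1 was 0.70 (adjusted p = 0.0693). For Errfi1 the 12 h difference was 0.77 (SE 0.38, adjusted p = 0.373), and 0.38 (adjusted p = 0.715) without R-Scm 12 h replicate 3. The mean of both changes, which responds to what the exchanges have in common, such as fresh medium, called 0 of the 7 by either tool at 12 h (1.51% of all genes) and 0 at 24 h (0.026%). At an unadjusted p under 0.05 it had 2 of the 7 at 12 h, Nr3c1 and Cebpd, both lower (18.1% of all genes), and 0 at 24 h (5.74%). For Cebpd the 12 h mean was -0.30 (SE 0.09, adjusted p = 0.0930).

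Between 12 h and 24 h, 0 of the 7 genes were called by edgeR or DESeq2 in R-Scm (0.774% of all genes) or in S-Rcm (0.156%). At an unadjusted p under 0.05 there was 1 in R-Scm (Sgk1, lower at 24 h by a log2 fold change of -0.34, 13.6% of all genes) and there were 3 in S-Rcm (Tsc22d3 and Cebpd higher, Klf9 lower, 9.26% of all genes). Without R-Scm 12 h replicate 3 the Sgk1 change from 12 h to 24 h was -0.07 (unadjusted p = 0.561), and leaving out R-Scm 24 h replicate 1 gave -0.21 (unadjusted p = 0.196). At 24 h the cells were also set against the medium they had moved to, and again 0 of the 7 were called by either tool in R-Scm 24 h against Scm (0.592% of all genes) or in S-Rcm 24 h against Rcm (0.221%). An unadjusted p under 0.05 was found for 0 of the 7 in the first (10.1% of all genes) and for Tsc22d3 in the second (7.48%). Sgk1 differed there by 0.02 (95% interval -0.31 to 0.34) and 0.00 (95% interval -0.32 to 0.33) on the log2 scale. The test for any difference among the 6 groups called 0 of the 7 by edgeR, against 7.09% of all genes, with 2 (Sgk1 and Cebpd) at an unadjusted p under 0.05 (23.3% of all genes). Sgk1 had the lowest value, an adjusted p of 0.0536, and was the 1 gene called by DESeq2 (adjusted p = 0.00334).

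The wider receptor pathway was described with lists of other genes. Of 14 genes of the receptor machinery and of steroid handling, 12 were tested. Of these 12, 0 were called by edgeR or DESeq2 in any of the 5 comparisons with Rcm or Scm (0.338% to 2.74% of all genes by edgeR). An unadjusted p under 0.05 was found for 4 in R-Scm 12 h (17.6% of all genes) and for 0 in the other comparisons (8.11% to 16.2%). The 12 include the chaperones Hsp90aa1 and Hsp90ab1, the co-chaperones Fkbp4 and Ptges3 and the coregulators Ncoa1, Ncoa2 and Ncor1. Hsp90ab1 was among the highest, with group means of 2247 to 2446 CPM. Hsd11b1, the enzyme that makes active steroid from its inert form, and Nr3c2, the mineralocorticoid receptor, were not tested, with group means of at most 0.0514 and 0.276 CPM.

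Of 20 other genes that glucocorticoids induce, 17 were tested, and their calls went both ways. Angptl4, a secreted inhibitor of lipoprotein lipase that fatty acids also induce through PPAR receptors, was higher in Rcm than in Scm (29.0 against 8.26 CPM, log2 fold change 1.81, SE 0.19, adjusted p = 7.00e-05). It rose after 12 h and 24 h of S-Rcm by log2 fold changes of 2.001 and 1.98 and fell after 12 h and 24 h of R-Scm (-0.96 and -1.15). The 24 h fall was not called without R-Scm 24 h replicate 3 (-1.11, adjusted p = 0.0631) or with the 2 groups alone (adjusted p = 0.123). Angptl4 was the 1 gene of this list called by edgeR in Rcm (2.3% of all genes), in R-Scm 24 h (0.377%) and in S-Rcm 24 h (0.338%), where DESeq2 also called Mt1. Without R-Scm 24 h replicate 1 Cdkn1c and Nfkbia were called beside Angptl4 in R-Scm 24 h. That fit called 501 of 15704 genes, against 58 of 15381 with all libraries. In R-Scm 12 h 4 of the 17 were called, against 2.74% of all genes. Mt2 (a metallothionein, log2 fold change 1.04) was higher and Angptl4, Ddit4 (an inhibitor of mTORC1, -0.76) and Per1 (a clock repressor, -0.59) were lower. Without R-Scm 12 h replicate 3 only Angptl4 of these was called. Mt2 was also not called without any 1 of the Rcm libraries, Ddit4 without 4 of the 6 libraries and Per1 without 3. In S-Rcm 12 h 2 were called (0.858% of all genes), Angptl4 higher and Per1 lower (-0.63), the latter lost without any single library. The median of the 17, on the log2 scale, was 0.04 in Rcm. For R-Scm it was -0.08 at 12 h and -0.04 at 24 h, and for S-Rcm it was 0.29 at 12 h and 0.05 at 24 h. Dusp1, Zfp36 and Pdk4, further genes of this list, had adjusted p-values of at least 0.247 in all 5.

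Of 12 genes that glucocorticoids repress, 10 were tested. In R-Scm 12 h 5 of the 10 were called (2.74% of all genes), all higher, with a median log2 fold change of 1.10 over the 10. They were the collagenase gene Mmp13 (3.05, SE 0.49, adjusted p = 0.00266), the stromelysin gene Mmp3 (2.71, SE 0.35, adjusted p = 0.000532) and the chemokine genes Ccl7 (1.22), Cxcl1 (1.19) and Ccl2 (1.02). Mmp3 rose from 165 to 1076 CPM. Without R-Scm 12 h replicate 3 4 of them were still called, all but Ccl2. Cxcl1 and Ccl2 were also not called without Rcm replicate 1, whereas Mmp13, Mmp3 and Ccl7 were called without any single library of the 2 groups. In S-Rcm 12 h, the opposite exchange, 3 of the 10 were called (0.858% of all genes). Again all were higher, with Mmp13 at 2.44, Mmp3 at 1.704 and Cxcl1 at 1.29. Each of these 3 calls was lost when any single library of S-Rcm 12 h or Scm was left out. In the same fits the calls over all genes fell from 132 to between 36 and 76. The log2 fold changes stayed at 2.35 to 2.50 (Mmp13), 1.67 to 1.73 (Mmp3) and 1.19 to 1.38 (Cxcl1) under every alternative. At 24 h 0 of the 10 were called by edgeR in either exchange (0.377% of all genes in R-Scm and 0.338% in S-Rcm). An unadjusted p under 0.05 was found for 2 in R-Scm (10.3% of all genes) and 3 in S-Rcm (8.11%). DESeq2 called 0 and 1 (Cxcl1), and without R-Scm 24 h replicate 1 Lif was called in R-Scm. That fit called 501 of 15704 genes, against 58 of 15381 with all libraries. In Rcm against Scm edgeR called 1 of the 10 (2.3% of all genes), Cxcl1 (1.11, adjusted p = 0.0305). That call was lost without any single library, and DESeq2 called Cxcl1 and Il6. Il6 had 0 counts in all Scm libraries and at most 6 in those of Rcm and S-Rcm. With Il6 at the bound that 3 counts per library set, the median of S-Rcm 12 h was 0.44, against 0.62 as fitted. The mean of both 12 h changes called 6 of the 10, all higher, against 1.06% of all genes called higher. They were the 5 genes above and Il6, in whose place DESeq2 called Ptgs2.

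**Figure D4:**
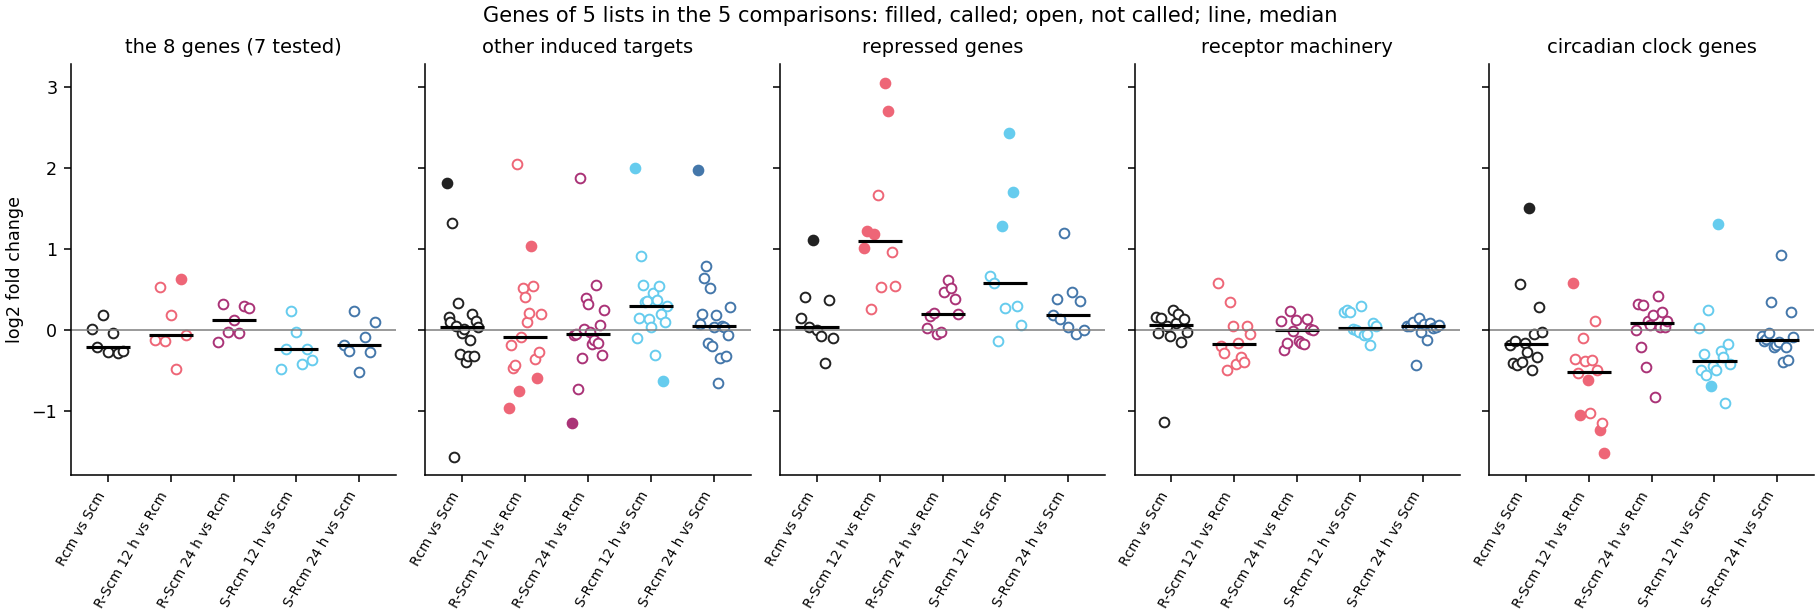
Log2 fold change of the genes of 5 lists in the 5 comparisons, with 1 panel per list, filled points for called genes, open points for others and a black line for the median of the genes drawn. Il6 is not drawn in the 3 comparisons with Scm, where it had 0 counts. The members stay between -0.51 and 0.64, while the repressed genes reach 3.05 in R-Scm 12 h.

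Other lists show what the serum exchange moved beside these genes. Of 14 clock genes tested, of 15 listed, 5 were called in R-Scm 12 h (2.74% of all genes). Tef (-1.52), Per2 (-1.23), Ciart (-1.05) and Cry2 (-0.62) were lower and Arntl (0.58) was higher. Cry2 was not called without R-Scm 12 h replicate 3 or Rcm replicate 1, and Arntl without 4 of the 6 libraries. In S-Rcm 12 h 2 were called (0.858% of all genes), Cry1 lower (-0.69) and Hlf higher (1.31), calls that were lost without 6 and 5 of the 6 libraries. In Rcm 1 of the 14 was called (2.3% of all genes). This was Hlf, which was higher (1.51), though not called without Scm replicate 2. DESeq2 also called Per3 in R-Scm 12 h and Per2 in S-Rcm 12 h. At 24 h 0 of the 14 were called by edgeR or DESeq2 in either exchange (0.377% of all genes by edgeR in R-Scm and 0.338% in S-Rcm). An unadjusted p under 0.05 was found for 2 in each (10.3% of all genes in R-Scm and 8.11% in S-Rcm). Among 13 tested serum immediate early genes Egr3 was the 1 gene called by edgeR in the 5 comparisons. It was lower in Rcm (-1.83), S-Rcm 12 h (-1.44) and S-Rcm 24 h (-1.56), where 2.3%, 0.858% and 0.338% of all genes were called. These calls were lost without 0, 6 and 5 of the 6 libraries. DESeq2 also called Fosb in Rcm and Klf10 in S-Rcm 24 h. Of the 13, 3 had an unadjusted p under 0.05 in R-Scm 12 h (17.6% of all genes). There were 4 in each of the other comparisons (8.11% to 16.2%). The test for any difference among the 6 groups called 2 of the 13 by edgeR (7.09% of all genes). Of 10 feedback genes of receptor tyrosine kinases 3 were called in Rcm against Scm (2.3% of all genes). Dusp4 (-0.76) and Etv4 (-0.64) were lower and Spry1 (1.64) was higher in Rcm, each in a call that was lost without 5 of the 6 libraries. In the 4 exchange comparisons 0 were called by edgeR, 4 to 6 had an unadjusted p under 0.05 (8.11% to 17.6% of all genes), and DESeq2 called Dusp4 in S-Rcm 12 h.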

How the data were processed

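RNA-seq counts of 18 libraries of MEFs were used, in 6 groups of 3 taken from the sample titles. The authors extracted total RNA, sequenced it as paired-end reads, aligned the reads with HISAT2 to GRCm38 and deposited raw counts per gene, without normalization. The counting tool, its use of strand and its treatment of reads with several alignments are not given in the sources used here. Depth was 14534906 to 20313715 counts per library, and intervals from counts cover counting error only. Replicates differed beyond counting noise (reduced chi-square of at least 9.61).

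Genes were kept by edgeR's filterByExpr (15381 of 55487), scaled with TMM factors (0.963 to 1.03) and fitted with edgeR's robust quasi-likelihood model over all 18 libraries. P-values were Benjamini-Hochberg adjusted over these 15381 genes, and SEs and 95% intervals came from that fit. A gene was called at an adjusted p under 0.05 and an absolute log2 fold change above 0.58. Levels are CPM, and log2 CPM used a prior count of 2. Alternatives were RLE factors, DESeq2, no filter on low counts, a floor of 10 counts in all libraries, the replicate number as a block, the adjusted p alone, the 2 compared groups alone, and each library left out. List counts without the libraries that stand apart, the correlation without them and a block by column number were chosen after seeing the data. The steps were tested on simulated counts. Every member is named in every comparison, up to 4 called genes per other list and comparison by smallest p, and for called members the 3 most correlated genes. Genes beyond these were named after their values were seen. The members and lists were chosen with earlier results of these data known. Exon lengths and overlaps came from GENCODE on GRCm38, with blastn 2.17.0. The tools were edgeR 4.0.16 and DESeq2 1.42.0 under R 4.3.3, and Python 3.11.15 with matplotlib 3.10.9.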

Additional observations from a re-analysis of the deposited data

Results flagged for a closer look

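The Sgk1 change differed between the opposite exchanges at 12 h. Sgk1 was higher in R-Scm 12 h than in Rcm (adjusted p = 0.0269 by edgeR). Its lower level in S-Rcm 12 h than in Scm did not pass the test (adjusted p = 0.534 by edgeR). The difference between both changes was 0.87 on the log2 scale (adjusted p = 0.0470 by edgeR). R-Scm was higher than Rcm in 3 of 3 libraries and S-Rcm lower than Scm in 3 of 3. The highest Sgk1 value was that of R-Scm 12 h replicate 3, and its part in the difference is given by the value without it, 0.60 (adjusted p = 0.0588). The call was lost in 10 of 12 fits that left out 1 library of the groups compared, and in 12 of all 19 alternatives.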

How the results depend on the processing

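The number of members called in R-Scm 12 h against Rcm was 1, and 0 by edgeR on the 2 compared groups alone (Sgk1 log2 fold change 0.65, adjusted p = 0.155). It was 0 to 1 when a library was left out. For the mean and difference of the opposite exchanges the number was 1, and 0 with the replicate block (Sgk1 difference at 12 h 0.85, adjusted p = 0.0558). It was 0 to 1 when a library was left out. Some of these losses came with little change in the fold, and their cause was not tested. They were those without replicate 2 or 3 of S-Rcm 24 h, or without a library of Scm, Rcm or S-Rcm 12 h. For any difference among the 6 groups the number was 0, and 1 (Sgk1) without the filter, with at least 10 counts in every library and by DESeq2. It was 0 to 1 when a library was left out, with the call gained without R-Scm 12 h replicate 1 or 2 or R-Scm 24 h replicate 1. The other 6 counts of members stayed at 0 under every alternative. Of 916 further values of single genes 0 changed direction and 159 lost a call, and 0 gained one. The replicate numbers in the titles do not pair the libraries: of 45 same-numbered pairs 11 had a correlation of deviations above 0.1 (range -0.20 to 0.35), and 8 of 18 libraries correlated best with their own number. That replicate block changed no other count of members. The deposited columns number 6 libraries of 3 groups differently from the titles. Their numbers do not pair the libraries either (7 of 36 pairs above 0.1), and a replicate block by column number, added after seeing the data, left 0 members called in R-Scm 12 h against Rcm (Sgk1 0.51, adjusted p = 0.139) and 0 for the mean and difference of the opposite exchanges (Sgk1 difference at 12 h 0.75, adjusted p = 0.149). Depth limits Zbtb16, which allows up to 0.208 CPM, and gives Tsc22d3 no more than 471 counts per library.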
